A study of Mus musculus and Rattus norvegicus with 60 samples.

Results

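A set of 10 collagen genes of fibrous connective tissue and bone was followed through the growth plates of mice and rats. Its members were *Col1a1*, *Col1a2*, *Col3a1*, *Col5a1* and *Col5a2*, which encode fibril-forming chains, *Col12a1* and *Col14a1*, which encode fibril-associated collagens, and *Col6a1*, *Col6a2* and *Col6a3*, the chains of the microfibrillar collagen VI. The rule for members used gene symbols alone. All 10 were among the 20155 mouse genes listed and 7 were among the 15163 rat genes listed. Rat *Col6a1*, *Col6a3* and *Col12a1* were not analysed here. All 10 mouse and 7 rat members passed the filter on low values, set at 10 or more normalized counts in 5 or more libraries, which left 15213 mouse and 11760 rat genes.

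RNA had been sequenced from laser captures of the proliferative zone, PZ below, and of the hypertrophic zone, HZ below, in frozen sections of growth plate cartilage, the plate near the end of a long bone where elongation takes place. The animals were untreated C57BL/6 mice and Sprague Dawley rats, and, by the study's methods, males. The 6 groups of each species were the PZ and HZ of the proximal tibia at 1 week, the same zones of the proximal tibia at 4 weeks, and both zones of a proximal forelimb phalanx at 1 week. Each group held 5 libraries, except the mouse phalanx PZ, in which replicate 3 had no column and 4 libraries were analysed. The labels give every library of a species a number of its own, which may count animals or samples, so p-values measure the spread between these samples. Whether a PZ and an HZ library came from the same animal was not stated. Because the tibia lies in the hindlimb and the phalanx in the forelimb, bone and limb cannot be told apart. Comparisons of age and of bone shared the 1-week tibia libraries. The mouse libraries held between 19711370 and 41856130 reads (5240960 to 27649840 without the ribosomal transcript *Rn45s*) and the rat libraries between 7805716 and 28982156. Rat 1-week tibia HZ libraries held 7805716 to 11050586 reads, below all 4-week tibia HZ (17739765 to 26066064) and phalanx HZ libraries (17043582 to 22634210). Rat tibia PZ libraries held 11700818 to 15754313 at 1 week and 22114682 to 28982156 at 4 weeks. Without *Rn45s*, mouse tibia HZ libraries held 5240960 to 10397185 at 1 week and 13530889 to 18144287 at 4 weeks. In these comparisons depth cannot be told apart from age, or from bone in the rat HZ. The captured cells were labelled chondrocytes, and the defining cartilage genes were present in every library, with mouse *Col2a1* at 93400 to 3091000 normalized counts and rat *Col2a1* at 927300 to 4349000. The lowest mouse values were those of the phalanx HZ, in which 4 libraries had 93400 to 232200 *Col2a1* counts and replicate 5 had 840800. Replicate 5 of the mouse phalanx HZ stood apart from its group for the collagens as well, and results that rest on it are given with and without it.

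Collagens are secreted as triple helices of 3 chains. Collagen I is the main protein of bone, tendon and ligament, collagen V regulates the diameter of collagen I fibrils, and collagen III is abundant in vessels, skin and other extensible tissues. Collagens XII and XIV bind along the surface of fibrils, and collagen VI forms beaded filaments that in cartilage are concentrated in the pericellular matrix around each chondrocyte. The fibrils of growth plate cartilage itself are made of collagens II, IX and XI, with collagen X added by hypertrophic chondrocytes. In these bulk captures, fewer cells of a type and less RNA per cell cannot be told apart.

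The 3 collagen VI genes were correlated over the 29 mouse libraries (Pearson r of log2 values 0.72 to 0.95). The sequences around their transcription starts are shown for that reason. On the mouse build GRCm38, *Col6a1* lies at chr10:76708792-76726168 and *Col6a2* at chr10:76595762-76623630, both on the minus strand and 85.2 kb apart, and *Col6a3* lies at chr1:90765923-90843971, also on the minus strand. RefSeq promoter entries, running from 250 bases before to 50 bases after the transcription start on GRCm38.p6, were found for 6 of the 10 members. The windows are chr10:76725995-76726294 for *Col6a1*, chr10:76623355-76623654 for *Col6a2* and chr1:90843922-90844221 for *Col6a3*, each on the minus strand and read 5′ to 3′. *Col6a2* has 2 entries, of which the one with the more downstream start is shown. Capitals mark matches on either strand to CCCTCCC or to the GC box GGGCGG, which can overlap each other and themselves.
Col6a1: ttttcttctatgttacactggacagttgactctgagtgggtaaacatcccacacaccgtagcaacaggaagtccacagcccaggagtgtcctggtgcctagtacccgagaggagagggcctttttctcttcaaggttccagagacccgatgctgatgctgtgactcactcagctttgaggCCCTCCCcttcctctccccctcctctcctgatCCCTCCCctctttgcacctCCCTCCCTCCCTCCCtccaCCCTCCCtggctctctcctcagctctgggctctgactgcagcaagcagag
Col6a2: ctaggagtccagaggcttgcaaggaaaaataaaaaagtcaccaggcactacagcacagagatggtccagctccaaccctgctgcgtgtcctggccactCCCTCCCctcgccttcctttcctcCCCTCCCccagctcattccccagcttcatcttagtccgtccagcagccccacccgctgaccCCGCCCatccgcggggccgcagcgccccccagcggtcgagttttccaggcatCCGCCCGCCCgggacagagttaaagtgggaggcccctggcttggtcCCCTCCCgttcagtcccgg
Col6a3: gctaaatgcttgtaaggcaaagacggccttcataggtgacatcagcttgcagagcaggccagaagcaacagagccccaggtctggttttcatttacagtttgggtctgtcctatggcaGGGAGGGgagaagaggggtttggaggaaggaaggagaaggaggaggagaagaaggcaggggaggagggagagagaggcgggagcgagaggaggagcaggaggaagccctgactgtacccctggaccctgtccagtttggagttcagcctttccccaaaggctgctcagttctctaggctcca
The TATA box TATAAA and the CCAAT box, written CCAAT, were searched on both strands as well, and neither occurred in any of these 3 windows. CCCTCCC occurred 6 times in the *Col6a1* window, 3 times in the *Col6a2* window and 1 time in the *Col6a3* window, and GGGCGG occurred 3 times in the *Col6a2* window only. Among all 32841 promoter entries of the same length, 22% held CCCTCCC, 35.7% GGGCGG, 37.4% CCAAT and 13.6% TATAAA. The GC content was 57.3%, 64.3% and 56.3% for *Col6a1*, *Col6a2* and *Col6a3*, against a median of 52.7% over all entries. The *Col6a2* entry not shown, chr10:76623581-76623880, held CCCTCCC 1 time and GGGCGG 1 time, with a GC content of 56.7%. These matches describe the letters of the windows and no binding was measured.

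In the mouse, 5 members were higher in the 4-week than in the 1-week tibia PZ, and 1 of them was also higher in the HZ. They were *Col6a1*, *Col6a2*, *Col6a3*, *Col12a1* and *Col5a1*, all more than 2-fold higher. Calls were made on log2(normalized count + 1) values at an adjusted p below 0.05, with limma and Benjamini-Hochberg adjustment over all genes tested in a species, and every adjusted p below is from that test. The 5 of 10 members higher in the PZ stood beside 5.19% of all mouse genes higher and 3.39% lower. In the mouse HZ, *Col12a1* was the only member of 10 that was called, as higher, beside 8.83% of all genes higher and 6.72% lower. The median log2 change over the 10 members was 1.25 in the PZ and 0.53 in the HZ, where the medians of all genes were 0.06 and 0.17. In the rat PZ, *Col6a2* was higher and *Col3a1* and *Col14a1* were lower at 4 weeks, 1 and 2 of 7 members beside 9.63% of genes higher and 6.45% lower, with a member median of −0.12. In the rat HZ, limma called 0 of 7 members, and limma-voom on recovered reads called 1, *Col6a2*. The rat HZ background was 6.68% of genes higher and 7.06% lower, and the member median was 0.43 there. Limma called 1615 of 11760 genes in that comparison and limma-voom 1321.

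The change with age itself differed between the zones for the 3 collagen VI chains of the mouse, which were called lower in the test of the HZ change minus the PZ change (3 of 10, beside 1.60% of genes lower and 0.841% higher). In the rat, 3 of 7 members differed in that test, *Col14a1* and *Col3a1* upward beside 1.53% of genes and *Col6a2* downward beside 2.82%. 

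Collagen VI in the mouse PZ was higher with age in every library. *Col6a1*, which encodes the α1 chain, stood at 2335, 3649, 4092, 4439 and 3137 normalized counts in replicates 1 to 5 of the 1-week tibia PZ and at 12040, 10850, 15640, 12910 and 11540 in the 4-week tibia PZ. The 2 groups did not overlap, and the log2 change was 1.86 ± 0.23 (SE, n = 5 and 5; limma adjusted p = 3.1e-06), a 3.62-fold rise. *Col6a2*, the α2 chain, stood at 1662, 2426, 3074, 3144 and 2212 at 1 week and at 9760, 8258, 13960, 10160 and 9283 at 4 weeks. Every 4-week library was again above every 1-week library, with a log2 change of 2.05 ± 0.23 (SE; limma adjusted p = 6.2e-07). *Col6a3*, the larger α3 chain, stood at 9680, 11570, 12100, 12170 and 10240 at 1 week and at 25510, 23170, 30480, 28760 and 24280 at 4 weeks, a log2 change of 1.24 ± 0.20 (SE; limma adjusted p = 0.00023) with no overlap. These 3 calls were kept under each of the 18 alternative settings, with log2 changes between 0.83 (*Col6a3*) and 2.14 (*Col6a2*).

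In the HZ of the same bones the values of the 2 ages overlapped. *Col6a1* was at 6624, 6250, 7509, 4955 and 7283 in the 1-week tibia HZ and at 6625, 6349, 10820, 7954 and 7846 in the 4-week tibia HZ, groups that overlapped (log2 change 0.27 ± 0.23, limma adjusted p = 0.46). *Col6a2* and *Col6a3* overlapped between ages as well, with log2 changes of 0.58 ± 0.23 and −0.29 ± 0.20 (limma adjusted p = 0.083 and 0.36). The difference between the zones in the change with age was −1.59 ± 0.32 for *Col6a1*, −1.47 ± 0.32 for *Col6a2* and −1.54 ± 0.29 for *Col6a3* on the log2 scale (SE; limma adjusted p = 0.0056, 0.010 and 0.0033). Each kept its sign and call when any 1 library was left out. After quantile normalization the differences were −1.11 for *Col6a1* (adjusted p = 0.062) and −1.01 for *Col6a2* (adjusted p = 0.086), so that those 2 calls were lost and that of *Col6a3* was kept.

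The order of the zones thus differed between the ages. At 1 week every mouse tibia HZ library was above every PZ library for all 3 chains, by log2 differences of 0.91 ± 0.23, 1.17 ± 0.23 and 0.70 ± 0.20 for *Col6a1*, *Col6a2* and *Col6a3* (limma adjusted p = 0.002, 0.00014 and 0.0072). At 4 weeks every HZ library was below every PZ library for *Col6a1* (−0.68 ± 0.23, adjusted p = 0.021) and *Col6a3* (−0.84 ± 0.20, adjusted p = 0.0021), while *Col6a2* overlapped (−0.30 ± 0.23, adjusted p = 0.33). The 4-week *Col6a1* call was lost without PZ replicate 3 (adjusted p = 0.058), HZ replicate 1 (0.051) or HZ replicate 2 (0.057). Quantile normalization left differences of −0.36 (*Col6a1*, adjusted p = 0.21) and −0.23 (*Col6a3*, adjusted p = 0.30), with neither gene called.

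In the 1-week phalanx the PZ was the zone with the higher values. In the mouse phalanx PZ, *Col6a1* stood at 10520, 9537, 8152 and 9024 in replicates 1, 2, 4 and 5, *Col6a2* at 8534, 8658, 6775 and 8488, and *Col6a3* at 16270, 15970, 16900 and 15490. Every one of these values was above every 1-week tibia PZ value of the same gene. The log2 differences between phalanx and tibia were 1.43 ± 0.24 and 1.73 ± 0.24 for *Col6a1* and *Col6a2* (SE, n = 4 and 5; limma adjusted p = 0.00043 and 3.5e-05). *Col6a3* differed by 0.54 ± 0.22, and its call was not made (adjusted p = 0.18), although it was made with limma fitted to these 2 groups alone (adjusted p = 0.00043) and with array quality weights (adjusted p = 0.041).

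In the mouse phalanx HZ the same chains were low. *Col6a1* stood at 4049, 2508, 2588, 4067 and 8377 in replicates 1 to 5, *Col6a2* at 4817, 2645, 2842, 4573 and 7515, and *Col6a3* at 6156, 4366, 4501, 8045 and 13220. Replicate 5 was the highest library of the group for all 3 genes, and for *Col6a3* it still lay below every tibia HZ library. Against the 1-week tibia HZ the log2 differences were −0.73 ± 0.23 for *Col6a1* (limma adjusted p = 0.025), −0.40 ± 0.23 for *Col6a2* (0.23) and −1.44 ± 0.20 for *Col6a3* (1.3e-05). Without replicate 5 they were −1.005, −0.62 (adjusted p = 0.032) and −1.69, and all 3 were called. The *Col6a1* call was lost without tibia HZ replicate 3 (adjusted p = 0.055), tibia HZ replicate 5 (0.054), phalanx HZ replicate 2 (0.085) or phalanx HZ replicate 3 (0.083), and with quantile normalization (−0.51, 0.11).

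The estimated difference between bones was thus positive in the PZ and negative in the HZ for all 3 chains. The PZ estimate of *Col6a3* and the HZ estimate of *Col6a2* were not called. The HZ difference minus the PZ difference was −2.16 ± 0.33 for *Col6a1*, −2.13 ± 0.33 for *Col6a2* and −1.98 ± 0.30 for *Col6a3* (SE; limma adjusted p = 9.7e-05, 0.00011 and 8.5e-05), and each was called under all 27 alternatives. Those were the 3 of 10 mouse members called in that test, all downward, beside 6.19% of genes lower and 4.38% higher. Within the phalanx, *Col6a1*, *Col6a2* and *Col6a3* were lower in the HZ than in the PZ by 1.25, 0.96 and 1.28 on the log2 scale, as values of −1.25 ± 0.24, −0.96 ± 0.24 and −1.28 ± 0.22 (limma adjusted p = 2e-04, 0.0028 and 4.6e-05).

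In the rat, *Col6a2* was the 1 collagen VI chain measured. It stood at 2272, 1714, 1052, 2454 and 1709 in the 1-week tibia PZ, at 3376, 5149, 4161, 4176 and 4104 in the 4-week tibia PZ, and at 2323, 2855, 2525, 3677 and 2409 in the 1-week phalanx PZ. The 4-week PZ libraries were all above the 1-week libraries (log2 change 1.23 ± 0.20, limma adjusted p = 3.3e-05), and 2 of the phalanx PZ libraries lay below the highest tibia PZ library. In the HZ it stood at 7232, 10590, 8993, 7168 and 9318 at 1 week, at 3772, 5443, 6404, 5928 and 8004 at 4 weeks, and at 4730, 7777, 5073, 8048 and 5017 in the phalanx. Change with age in the HZ was −0.58 ± 0.20 (limma adjusted p = 0.05, not called; called without 1-week HZ replicate 1 or 4 or 4-week HZ replicate 5), and the difference between zones in that change was −1.81 ± 0.28 (adjusted p = 0.00011). For bone, the PZ difference was 0.62 ± 0.20 and the HZ difference −0.52 ± 0.20 (limma adjusted p = 0.04 for both). The PZ call was lost without tibia PZ replicate 2, 3 or 5 or phalanx PZ replicate 2, 3 or 4 (adjusted p between 0.057 and 0.19), and the HZ call without tibia HZ replicate 2, 3 or 5 or phalanx HZ replicate 1, 3 or 5 (0.074 to 0.11) and with quantile normalization (0.24). The difference between the 2 zones in these values was −1.14 ± 0.28 (adjusted p = 0.0052), called under all 28 alternatives. *Col6a2* was thus the 1 of 7 rat members called in that test, downward, beside 8.57% of genes lower and 7.33% higher. Unlike in the mouse, rat *Col6a2* was higher in the HZ than in the PZ of the phalanx (1.13 ± 0.20, adjusted p = 3.3e-05) as well as of the 1-week tibia (2.28 ± 0.20, adjusted p = 5.1e-11). The species were not tested against each other.

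**Figure D1:**
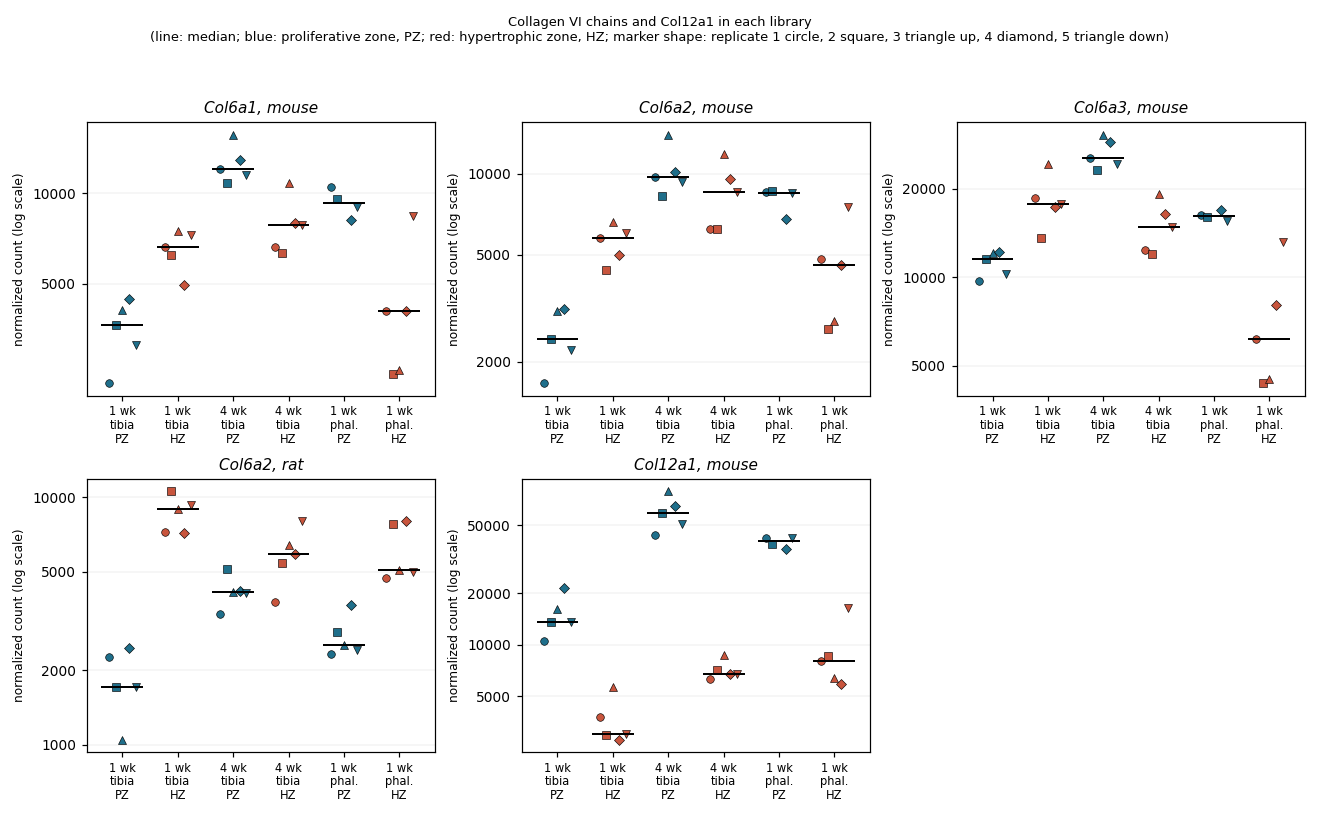
Normalized counts (log scale) of the collagen VI chains and *Col12a1* in each library, by group, with the group median as a line, the PZ in blue, the HZ in red and 1 marker shape per replicate number. In the mouse PZ the collagen VI chains are higher at 4 weeks than at 1 week without overlap, as in *Col6a1* (2335 to 4439 against 10850 to 15640), while mouse *Col12a1* is lower in every HZ library than in every PZ library of the same bone and age.

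Across bones at 1 week, 6 of 10 mouse members were higher in the phalanx PZ, beside 3.23% of all genes higher and 1.86% lower. They were *Col6a1*, *Col6a2*, *Col12a1*, *Col5a1*, *Col3a1* and *Col14a1*, with a member median of 1.45 on the log2 scale and a median of 0.01 over all genes. In the mouse phalanx HZ, *Col12a1* and *Col5a1* were higher and *Col6a1* and *Col6a3* lower, 2 and 2 of 10 members beside 9.77% of genes higher and 9.20% lower. Quantile normalization left 2 higher and 1 lower, with 2719 of 15213 genes called in place of 2886. Rat members were mostly higher in the phalanx. In the rat PZ these were *Col1a1*, *Col1a2*, *Col5a2*, *Col6a2* and *Col14a1*, 5 of 7 beside 6.77% of genes higher and 3.67% lower, with a member median of 2.00. In the rat HZ, *Col1a1*, *Col3a1*, *Col5a2* and *Col14a1* were higher and *Col6a2* lower, 4 and 1 of 7 beside 19.7% of genes higher and 16.3% lower, with a member median of 2.26 and an all-gene median of 0.13. Quantile normalization left 4 higher and none lower, with 4246 of 11760 genes called in place of 4236.

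These counts rested in part on single libraries. The mouse PZ count of 6 fell to 3 without tibia PZ replicate 1, tibia PZ replicate 2 or phalanx PZ replicate 1, the calls at risk being those of *Col3a1*, *Col5a1* and *Col14a1*. The mouse HZ count of 4 was 8 without phalanx HZ replicate 5, and it was 2 without tibia HZ replicate 5, phalanx HZ replicate 2 or phalanx HZ replicate 3. The rat PZ count of 5 fell to 2 without tibia PZ replicate 2, 3 or 5 or phalanx PZ replicate 3, and to 3 without phalanx PZ replicate 1, 4 or 5. With limma-voom on recovered reads it was 1, *Col14a1*, and all genes called there fell from 1228 to 677 of 11760. Shares of all genes called without 1 library are not reported here.

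*Col12a1*, a large fibril-associated collagen of dense connective tissue, was lower in the HZ of all 3 mouse growth plates. It stood at 10430, 13570, 16100, 21490 and 13510 normalized counts in the 1-week tibia PZ and at 3784, 2972, 5664, 2782 and 3003 in the HZ. At 4 weeks the tibia PZ was at 43810, 59170, 78930, 64860 and 50710 and the HZ at 6259, 7060, 8718, 6758 and 6748. The phalanx PZ was at 42060, 38630, 36330 and 42030 and the phalanx HZ at 7964, 8616, 6416, 5910 and 16470. In none of the 3 growth plates did the zones overlap, and replicate 5 was again the highest library of the phalanx HZ. The HZ minus PZ differences were −2.05 ± 0.23 at 1 week and −3.04 ± 0.23 at 4 weeks in the tibia, and −2.23 ± 0.24 in the phalanx (SE; limma adjusted p = 8.6e-08, 1.6e-10 and 1.6e-07). With age *Col12a1* rose by 2.00 ± 0.23 in the PZ and by 1.01 ± 0.23 in the HZ (adjusted p = 1.9e-06 and 0.004), and against the tibia it was higher in the phalanx by 1.44 ± 0.24 in the PZ and 1.27 ± 0.23 in the HZ (adjusted p = 0.00052 and 0.00031). All 4 of these were called under every alternative. The rise with age did not differ between zones at the threshold (−0.99 ± 0.33, limma adjusted p = 0.13), and did so in a fit of the tibia groups alone (adjusted p = 0.046).

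*Col14a1*, the other fibril-associated member, was the only one of the pair analysed in the rat. It stood at 775.8, 689.6, 803.6, 1101 and 1165 in the 1-week tibia PZ and at 198.1, 189.5, 159.8, 221.8 and 258.6 at 4 weeks, a fall without overlap (log2 change −2.12 ± 0.24, limma adjusted p = 7.9e-08). In the 1-week phalanx PZ it stood at 6732, 7848, 7167, 9350 and 8464, above every tibia library (3.14 ± 0.24, adjusted p = 7.6e-12). The HZ held less of it, with tibia values of 60.28, 110.8, 210, 62.65 and 98.81 at 1 week and 163.4, 125.1, 112.5, 105.8 and 160.2 at 4 weeks, and phalanx values of 870.1, 1388, 1417, 1447 and 1080 in the phalanx. Phalanx and tibia HZ did not overlap (3.63 ± 0.24, adjusted p = 1.6e-13), whereas the ages overlapped in the HZ (0.43 ± 0.24, adjusted p = 0.23; 0.70, adjusted p = 0.031, without 1-week tibia HZ replicate 3). The zones of the tibia differed by −3.18 ± 0.24 at 1 week, and those of the phalanx by −2.69 ± 0.24 (adjusted p = 1.3e-12 and 2.4e-10). At 4 weeks the difference was −0.62 ± 0.24 and was not called (adjusted p = 0.059), but it was called without 4-week PZ replicate 3 (0.048), with quantile normalization (0.027) and with array quality weights (0.0029). The fall with age differed between the zones by 2.55 ± 0.34 (adjusted p = 1.4e-05). 

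Mouse *Col14a1* was near the limit of detection. It lay between 0 and 179.2 normalized counts in 25 libraries outside the phalanx PZ and stood at 214.3, 106.8, 79.07 and 144.4 in the phalanx PZ. Those 4 values were above all 5 tibia PZ values, of which the highest was 50.91 (log2 difference 3.30 ± 1.00, limma adjusted p = 0.047). The call was lost without tibia PZ replicate 1, 2, 3 or 5 or any 1 of the 4 phalanx PZ libraries (adjusted p between 0.059 and 0.16), and with no filter on low values (0.058). The phalanx HZ, at 24.48, 10.78, 15.73, 3.634 and 22.23, was below the phalanx PZ in every library (−3.19 ± 1.00, adjusted p = 0.012), and that call was kept under all 17 alternatives.

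*Col3a1*, the collagen III chain, fell with age in the rat tibia PZ and was high in the phalanx. Its rat values were 1803, 2309, 394.3, 2381 and 1184 in the 1-week tibia PZ and 110.7, 137.2, 97.7, 375 and 79.68 in the 4-week tibia PZ. These groups did not overlap, and the log2 change of −3.32 ± 0.67 (limma adjusted p = 0.001) was called under all 18 alternatives. The 1-week tibia HZ was at 887, 384, 824.4, 1331 and 580.5, the 4-week tibia HZ at 2722, 999.7, 104.6, 1824 and 452.7, and the phalanx HZ at 4192, 2957, 7713, 4381 and 1425. Every phalanx HZ library exceeded every 1-week tibia HZ library (2.28 ± 0.67, adjusted p = 0.0097), while the ages overlapped in the HZ (0.02 ± 0.67, adjusted p = 0.99). In the rat phalanx PZ it stood at 5582, 3483, 2682, 3162 and 5528, also above all tibia PZ libraries, but the log2 difference of 1.52 ± 0.67 was called only in a fit of these 2 groups (adjusted p = 0.045, against 0.17 with all libraries). At 4 weeks *Col3a1* was higher in the HZ than in the PZ (2.47 ± 0.67, adjusted p = 0.009; 0.069 in a fit of the 2 groups alone), with ranges that overlapped. The difference between zones in the change with age, 3.35 ± 0.95 (adjusted p = 0.042), was called in 12 of 28 alternatives only. It was lost (adjusted p between 0.059 and 0.093) without 1-week PZ replicate 1, 2, 4 or 5, 1-week HZ replicate 2, 3 or 5, 4-week PZ replicate 1, 2, 3 or 5, or 4-week HZ replicate 1, 2 or 4, with limma-voom (0.14), and in a fit of the tibia groups alone (0.09).

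In the mouse, *Col3a1* was higher in the phalanx PZ, at 3524, 3001, 944.7 and 960.8, than in the 1-week tibia PZ, at 486.3, 367.1, 518.3, 549 and 1013. The 2 upper phalanx values were far above the other 2, and the groups overlapped (log2 difference 1.67 ± 0.44, limma adjusted p = 0.026). The call was lost without tibia PZ replicate 1 (0.057), 2 (0.078) or 3 (0.051) and without phalanx PZ replicate 1 (0.11) or 2 (0.10), and in a fit of these 2 groups alone (0.085). No other mouse comparison called *Col3a1*.

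**Figure D2:**
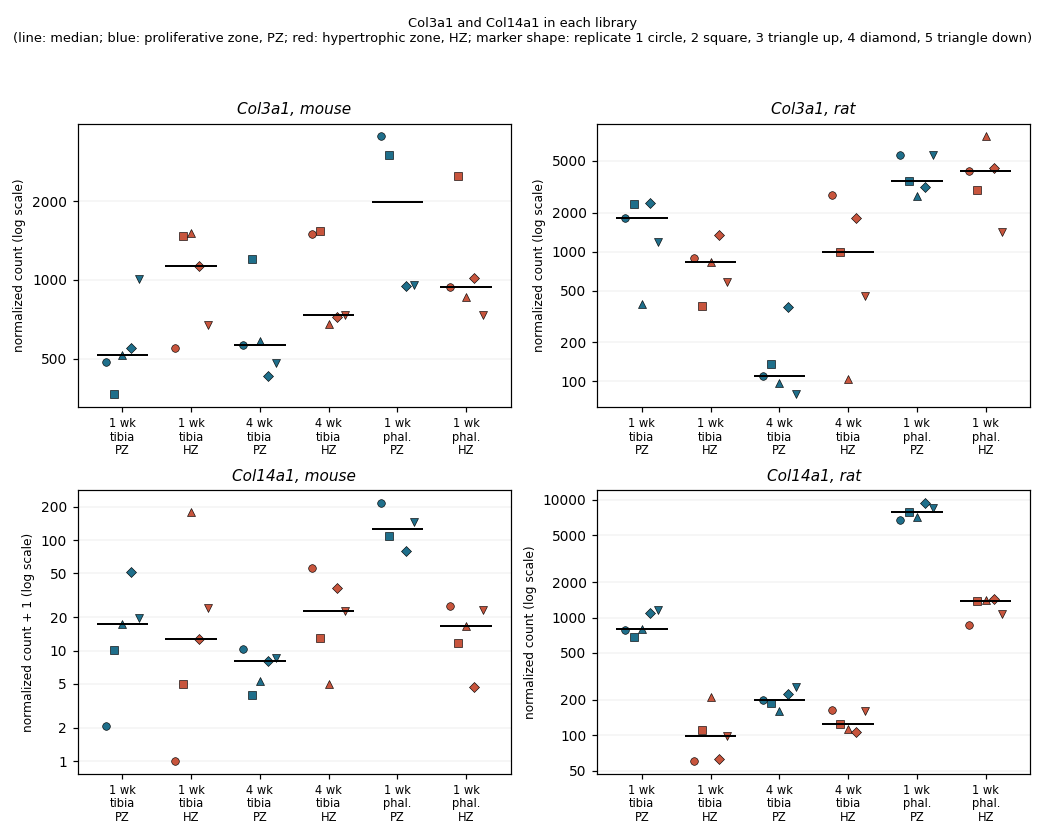
Normalized counts (log scale) of *Col3a1* and *Col14a1* in each library of the mouse (left) and rat (right), with 1 added to mouse *Col14a1* so that a 0 can be drawn; lines are group medians and marker shapes are replicate numbers. Rat *Col14a1* is highest in the phalanx PZ (6732 to 9350), and rat *Col3a1* is lower in the 4-week tibia PZ (79.68 to 375) than at 1 week (394.3 to 2381).

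The collagen I chains were the most variable of the well expressed members. *Col1a1* and *Col1a2* encode the 2 chains of collagen I, which in bone is made by osteoblasts. In the mouse, *Col1a1* stood at 4900, 4953, 28570, 67260 and 39140 in the 1-week tibia PZ and at 93220, 90720, 15310, 14800 and 29430 in the 4-week tibia PZ. Libraries of the same group thus differed by more than the groups did, and the log2 change was 0.99 ± 0.79 (limma adjusted p = 0.55). In the HZ it stood at 55250, 45710, 126000, 48670 and 43180 in tibiae of 1 week, at 131800, 192700, 41820, 31710 and 207700 in tibiae of 4 weeks and at 239400, 232000, 401600, 209700 and 35420 in the phalanx. In the phalanx, 4 HZ libraries were above every 1-week tibia HZ library and replicate 5 was below all of them. The bone difference of 1.59 ± 0.79 was not called (adjusted p = 0.17), and without replicate 5 it was 2.17 (adjusted p = 0.048). *Col1a2* behaved likewise, with 1.84 ± 0.71 (adjusted p = 0.071) and, without replicate 5, 2.39 (adjusted p = 0.015). It was also called, at 2.13 (0.05), without 1-week tibia HZ replicate 3. In the phalanx, the HZ minus PZ difference was 1.84 ± 0.84 for *Col1a1* and 1.87 ± 0.75 for *Col1a2* (adjusted p = 0.093 and 0.057), and without replicate 5 it was 2.41 for *Col1a1* (0.023) and 2.41 for *Col1a2* (0.011). The *Col1a2* value was also called with quantile normalization (0.033), array quality weights (0.048) and limma-voom (0.035). Neither mouse chain was called in any of the 9 comparisons of the main fit. In the phalanx PZ, replicate 5 was also the lowest library for both chains, at 24330 and 20140 counts. Calls with a replicate block are given at the end, since no label pairs the libraries.

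Rat *Col1a1* was called in 4 comparisons. It stood at 37170, 21430, 5422, 31510 and 9529 in the 1-week tibia PZ, at 75540, 37110, 2537, 83370 and 5516 in the 4-week tibia PZ and at 86850, 53180, 144300, 74550 and 255700 in the phalanx PZ. In the HZ of the same growth plates it stood at 155400, 47690, 35850, 166700 and 31980, at 745900, 521200, 89690, 331400 and 218000, and at 803700, 338900, 651900, 827900 and 588700. The phalanx libraries did not overlap the 1-week tibia libraries in either zone, with log2 differences of 2.65 ± 0.83 in the PZ and 3.18 ± 0.83 in the HZ (limma adjusted p = 0.04 and 0.0042). Zones differed without overlap by 3.91 ± 0.83 in tibiae of 4 weeks and 2.55 ± 0.83 in phalanges (adjusted p = 0.0012 and 0.016), and with overlap by 2.02 ± 0.83 in the 1-week tibia (adjusted p = 0.053). That last value was called without 1-week PZ replicate 1 (0.041) or 4 (0.047) and without 1-week HZ replicate 3 (0.046) or 5 (0.043). The PZ bone call was lost without tibia PZ replicate 2 (0.059), 3 (0.12) or 5 (0.091) and without phalanx PZ replicate 1 (0.059), 3 (0.085) or 5 (0.11). Age changed rat *Col1a1* by 0.27 ± 0.83 in the PZ and 2.16 ± 0.83 in the HZ (adjusted p = 0.88 and 0.082), the latter called without 4-week HZ replicate 3 (2.60, 0.047).

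Rat *Col1a2* was listed at 3.751 to 1223 normalized counts, and mouse *Col1a2* at 4844 to 289200. The 2 tables had been normalized separately, and why the rat entry was low was not tested. Rat *Col1a2* nevertheless followed rat *Col1a1* over the 30 libraries (Pearson r of log2 values 0.94, a description over libraries that include group differences). It stood at 23.78, 24.72, 9.983, 55.93 and 3.751 in the 1-week tibia PZ and at 178.1, 116.7, 273.5, 150.4 and 281 in the phalanx PZ, without overlap (log2 difference 3.40 ± 0.75, limma adjusted p = 0.0029; 0.11 with limma-voom). In the HZ it ranged from 55.4 to 296.2 at 1 week and from 196.1 to 1223 at 4 weeks. These ranges overlapped, and the log2 change of 2.19 ± 0.75 had an adjusted p of 0.051, with a call without 1-week HZ replicate 1 (0.031) or 4 (0.034) or 4-week HZ replicate 3 (0.032) or 5 (0.044), with a pseudocount of 4 (0.034), without a filter (0.05), with the stricter filter (0.047), with quantile normalization (0.037) and with these groups alone (0.049). Its HZ minus PZ difference was 2.69 ± 0.75 in the 1-week tibia and 4.04 ± 0.75 in the 4-week tibia (limma adjusted p = 0.0051 and 0.00025), and the first of these was not called with limma-voom (0.097).

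The collagen V chains had less spread between libraries of a group than *Col1a1*. Mouse *Col5a1* stood at 605.2, 690.1, 1411, 1982 and 1351 in the 1-week tibia PZ, at 3819, 3494, 2255, 2575 and 2692 in the 4-week tibia PZ, and at 4202, 3147, 4135 and 2321 in the phalanx PZ. Neither later group overlapped the first, and the log2 changes were 1.41 ± 0.38 with age and 1.61 ± 0.40 for the phalanx (limma adjusted p = 0.019 and 0.017). The age call was lost without 1-week PZ replicate 1 (0.074) or 2 (0.06) or 4-week PZ replicate 1 (0.055), and with quantile normalization (0.06). The bone call was lost without tibia PZ replicate 1 (0.055) or 2 (0.058) or phalanx PZ replicate 1 (0.056) or 4 (0.066), with quantile normalization (0.052) and with limma-voom (0.065). In the mouse HZ, *Col5a1* was at 2531, 2667, 3792, 2924 and 2190 in the 1-week tibia and at 6544, 7991, 10260, 6499 and 2325 in the phalanx, where replicate 5 was the low library (1.12 ± 0.38, adjusted p = 0.038; 1.61 without replicate 5). That call was lost without any 1 of tibia HZ replicates 1, 2, 4 and 5 and phalanx HZ replicates 1 to 4 (adjusted p between 0.051 and 0.11), with array quality weights (0.13) and with limma-voom (0.061).

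*Col5a2* separated the zones in both species. In the mouse 1-week tibia it stood at 652.7, 752.3, 882.2, 1572 and 1420 in the PZ and at 4221, 3953, 4327, 3373 and 3375 in the HZ. No HZ library reached down to a PZ library there, nor in the 4-week tibia (1131 to 2524 against 3686 to 6169) or the phalanx (1046 to 2076 against 2490 to 9104). The log2 differences were 1.95 ± 0.30, 1.61 ± 0.30 and 1.72 ± 0.32 (limma adjusted p = 7.5e-06, 0.00012 and 0.00012), and all 3 were called under every alternative. In the rat 1-week tibia it stood at 1701, 1230, 307, 1700 and 781.2 in the PZ and at 7174, 3347, 2368, 8751 and 2702 in the HZ. The zones did not overlap in any rat growth plate either, with log2 differences of 2.12 ± 0.64 at 1 week and 3.60 ± 0.64 at 4 weeks in the tibia and 2.38 ± 0.64 in the phalanx (adjusted p = 0.0091, 0.00019 and 0.0041). Rat *Col5a2* was also higher in the phalanx than in the tibia without overlap, by 2.00 ± 0.64 in the PZ and 2.26 ± 0.64 in the HZ (adjusted p = 0.042 and 0.0073). The PZ call was lost without tibia PZ replicate 2, 3 or 5 or phalanx PZ replicate 1, 3, 4 or 5 (adjusted p between 0.052 and 0.14). Rat *Col5a1* was higher in the HZ by 0.91 ± 0.23, 1.01 ± 0.23 and 1.19 ± 0.23 (adjusted p = 0.0023, 0.0019 and 0.00015), and its phalanx minus tibia difference in the PZ was 0.00 ± 0.23 (adjusted p = 1).

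**Figure D3:**
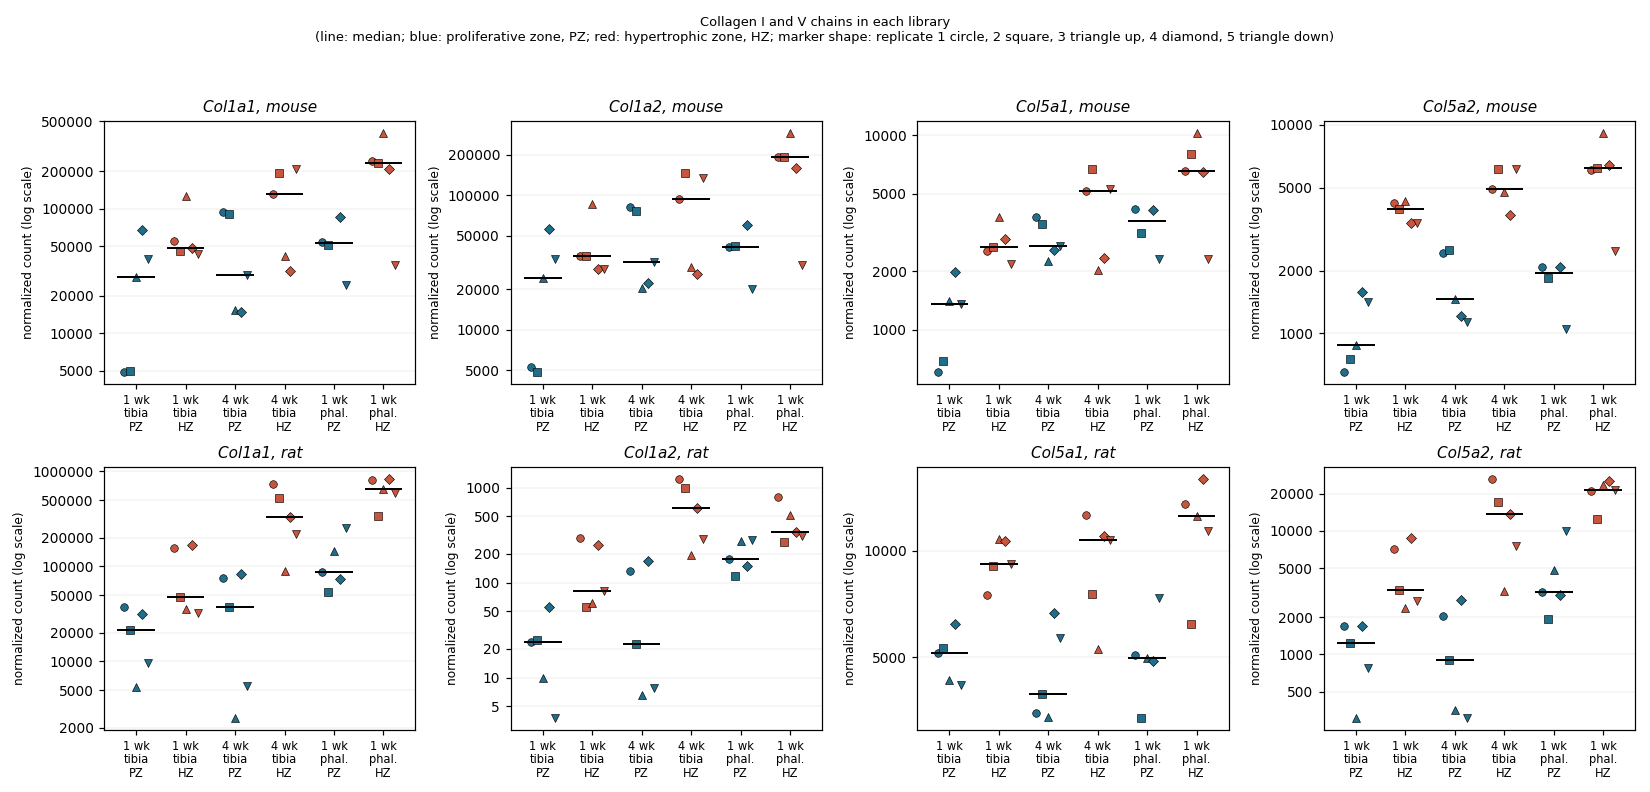
Normalized counts (log scale) of the collagen I and collagen V chains in each library of the mouse (top) and rat (bottom), with group medians as lines and marker shapes as replicate numbers. Mouse *Col1a1* spans 4900 to 67260 within the 1-week tibia PZ, replicate 5 is the lowest library of the mouse phalanx HZ for all 4 genes, and *Col5a2* is higher in the HZ than in the PZ of each growth plate without overlap.

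Between the zones, the members did not move as a group. In the mouse 1-week tibia, 5 of 10 were higher in the HZ (*Col5a1*, *Col5a2* and the 3 collagen VI chains) and *Col12a1* was lower, beside 20.4% of all genes higher and 23.7% lower. In the mouse 4-week tibia only *Col5a2* was higher and 3 were lower (*Col6a1*, *Col6a3* and *Col12a1*), beside 18.6% and 16.6%. Quantile normalization left 1 higher and 1 lower there, with 5710 of 15213 genes called in place of 5363. In the mouse phalanx *Col5a2* was higher and 5 members were lower (the collagen VI chains, *Col12a1* and *Col14a1*), beside 17.9% and 17.2%. Quantile normalization gave 3 higher and 5 lower in the phalanx, with 5474 of 15213 genes called in place of 5327. Leaving out phalanx HZ replicate 5 gave 9 calls in place of 6. The mouse member medians were 1.04, 0.54 and −0.83 on the log2 scale in that order of growth plates, and the medians of all genes were −0.15, −0.03 and −0.04.

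In the rat 1-week tibia, 4 of 7 members were higher in the HZ (*Col1a2*, *Col5a1*, *Col5a2* and *Col6a2*) and *Col14a1* was lower, beside 22.6% of genes higher and 19.0% lower. In the rat 4-week tibia 5 of 7 were higher (*Col1a1*, *Col1a2*, *Col3a1*, *Col5a1* and *Col5a2*), beside 13.5% higher and 7.82% lower. Quantile normalization added *Col14a1* as lower, with 2717 of 11760 genes called in place of 2505. In the rat phalanx 4 were higher (*Col1a1*, *Col5a1*, *Col5a2* and *Col6a2*) and *Col14a1* was lower, beside 22.9% and 17.7%. The rat member medians were 2.02, 2.47 and 1.13, and those of all genes 0.01, 0.01 and 0.09. In the mouse and the rat the fibril-associated members were thus lower in the HZ wherever they were called, and the collagen V chains were higher wherever they were called.

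**Figure D4:**
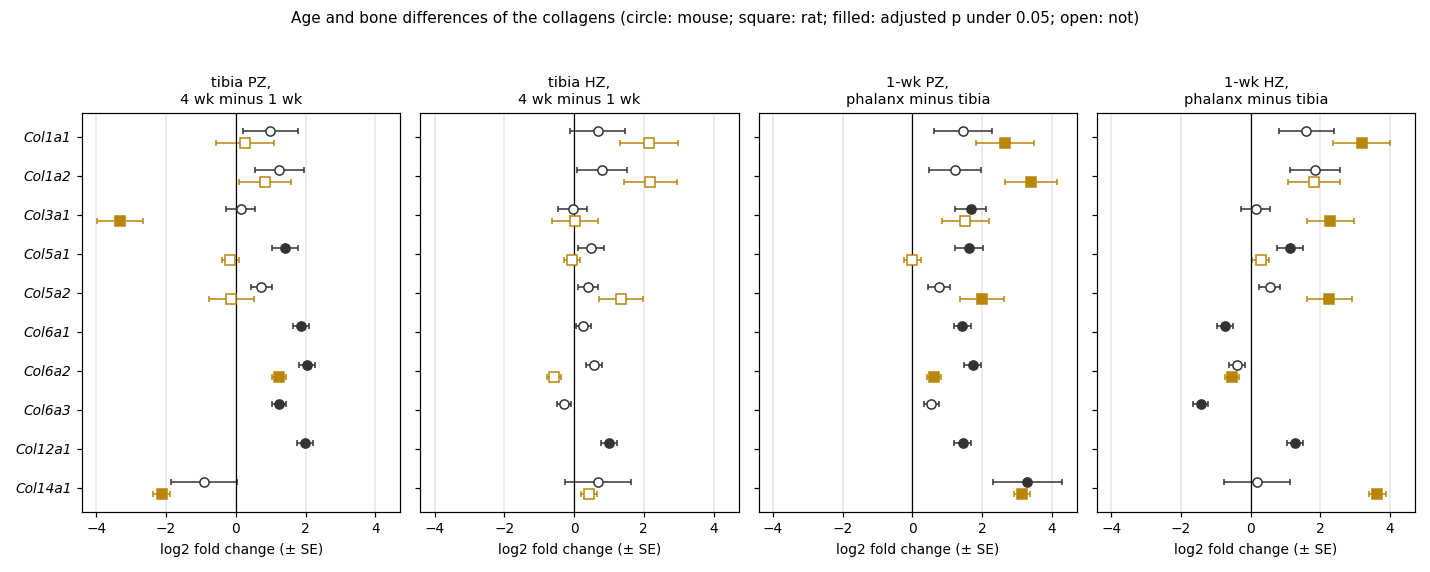
Log2 differences with their standard errors for each member, for age in the tibia (4 weeks against 1 week) and for bone at 1 week (phalanx against tibia), in the PZ and the HZ of each species; circles are mouse, squares rat, and filled symbols have an adjusted p below 0.05. The mouse collagen VI chains show positive differences in the PZ (*Col6a2*, 2.05 with age and 1.73 for bone) and smaller or negative ones in the HZ (0.58 and −0.40).

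The order of the members by level was read in the mouse as normalized counts per kb of merged exons, since lengths were at hand for that species. *Col1a1* had the highest median in each of the 6 groups, from 4353 per kb in the 1-week tibia PZ to 35350 per kb in the phalanx HZ, and *Col14a1* the lowest, from 1.015 to 17.91 per kb. In the 1-week tibia PZ, *Col1a2* (median 1962 per kb) was followed by *Col6a3* (967.1), *Col12a1* (891.1) and *Col6a1* (833.1), whose ranges overlapped. The ranges of *Col1a1* (746.6 to 10250) and *Col1a2* (389.8 to 4543) overlapped theirs as well, so the order of all these genes was not resolved there. *Col12a1* moved most in the order. Its median of 3886 per kb was the second highest in the 4-week tibia PZ, where its range of 2877 to 5183 overlapped those of *Col1a1*, *Col1a2* and *Col6a1*, and at 197.2 and 443.8 per kb it was eighth in the tibia HZ at 1 and 4 weeks.

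Members also differed in how far libraries of the same group were apart. The within-group SD on the log2 scale was 1.25 for mouse *Col1a1*, 1.13 for *Col1a2* and 1.56 for *Col14a1*, and between 0.34 and 0.38 for the collagen VI chains and *Col12a1*. For rat *Col1a1*, *Col1a2*, *Col3a1* and *Col5a2* it was between 1.01 and 1.32, and for rat *Col6a2*, *Col14a1* and *Col5a1* between 0.34 and 0.40. The median over genes with a mean of at least 1000 normalized counts was 0.25 in the mouse and 0.28 in the rat. The library with the most *Col1a1* in its group was also the one with the most *Col5a2* in 10 of 12 groups. It had the most *Col1a2* or *Col5a1* in 8 each, the most *Ibsp* (bone sialoprotein) in 7 and the most *Bglap* (osteocalcin) in 5. It had the most *Ctsk* (an osteoclast gene) in 4, the most *Sp7* (osterix) in 2 and the most *Col2a1* in 0. *Tnmd* (a tendon gene) is left out of this count, since all rat 4-week tibia HZ libraries held 0. With 4 or 5 libraries in a group, some such matches arise by chance alone. Their expected number was not computed, so no link is read from the low counts. Over all 29 mouse libraries Pearson r of log2 values was 0.98 between *Col1a1* and *Col1a2* and 0.85 between *Col1a1* and *Col5a2*. It was 0.95 between *Col6a1* and *Col6a2*, 0.86 between *Col6a1* and *Col6a3*, 0.72 between *Col6a2* and *Col6a3*, and −0.14 between *Col1a1* and *Col6a1*. Over the 30 rat libraries it was 0.98 between *Col1a1* and *Col5a2* and 0.41 between *Col1a1* and *Col6a2*. These correlations are descriptions over libraries that share the group differences.

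Genes from lists named for other cells and tissues moved with several of these results. Which cells held their transcripts was not measured in these bulk captures. Each sum given for a list is weighted toward its most abundant genes. The 14 osteoblast and bone matrix genes summed to between 73450 and 117800 normalized counts in the mouse 1-week tibia PZ, 345200 to 434500 in the 4-week tibia PZ and 116200 to 140800 in the phalanx PZ, and to 163600 to 294200 in the phalanx HZ against 121800 to 180800 in the tibia HZ. In the mouse PZ, 7 of the 14 were higher at 4 weeks, beside 5.19% of all genes, with *Alpl* (alkaline phosphatase, 3.91 ± 0.18) and *Sparc* (osteonectin, 2.08 ± 0.18) the most certain (limma adjusted p = 9.4e-16 and 3.4e-08). The osteocalcin gene *Bglap* lay between 0 and 117 in the mouse 1-week tibia PZ and between 144.4 and 915.4 at 4 weeks. The ages overlapped there for *Sp7* (1682 to 3132 and 2168 to 2732) and for *Ibsp* (254 to 4010 and 2814 to 8003). In the rat PZ, 6 of 11 tested osteoblast genes were higher in the phalanx, beside 6.77% of all genes, with *Spp1* (osteopontin) 4.43 ± 0.65 and *Dmp1* 4.06 ± 0.77 (limma adjusted p = 4.9e-05 and 0.00088). Their part in the collagen differences was not tested.

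The 17 genes of perichondrium, tendon and fibrous tissue summed to 40630 to 51690 in the mouse 1-week tibia PZ, 84810 to 106300 in the 4-week tibia PZ and 39130 to 52020 in the phalanx PZ. The HZ sums were smaller (5679 to 11710, 13430 to 16050 and 10230 to 25490 in the same order). The list as a whole was not lower in the HZ. Its median log2 differences of HZ against PZ were 0.215, 0.156 and 0.039 over the 15 genes tested. Of the 15 tested in the mouse, the smallest adjusted p with age in the PZ was that of *Lum* (0.82 ± 0.27, limma adjusted p = 0.057). In the HZ limma called 5 as higher, beside 8.83% of all genes, *Lum* (lumican, 1.26 ± 0.27), *Dpt* (dermatopontin, 3.66 ± 0.97), *Dcn* (decorin), *Scx* and *Fmod* (limma adjusted p = 0.0019 for *Lum* and 0.0089 for *Dpt*). In the rat PZ, 3 of 14 were lower with age, beside 6.45% of all genes, *Lum* (−2.44 ± 0.28), *Prrx1* (−3.12 ± 0.45) and *Postn* (periostin, −4.34 ± 0.73; limma adjusted p = 2.6e-07, 5.9e-06 and 0.00016), beside the falls of *Col3a1* and *Col14a1*. In the rat phalanx PZ, *Dcn* (3.15 ± 0.57) and *Lum* (0.97 ± 0.28) were the 2 of 14 that were higher, beside 6.77% of all genes (adjusted p = 0.00041 and 0.022). In the rat phalanx HZ, 8 of 14 were higher and *Scx* was lower, beside 19.7% and 16.3% of all genes, with *Lum* (2.09 ± 0.28) and *Twist1* (4.26 ± 0.79) the most certain (limma adjusted p = 1.3e-06 and 8.1e-05). The rat fibrous genes summed to 224900 to 360400 in the 1-week tibia PZ, 381900 to 519600 in the 4-week tibia PZ and 144700 to 323000 in the phalanx PZ, and to 34010 to 70890 and 53080 to 115300 in the 1-week HZ of tibia and phalanx. The rat PZ sums did not follow the list as a whole. With age the sum was higher, while the median log2 change over the 14 genes tested was −0.693 and 0 were called higher. Between bones the PZ sums overlapped, while the list median was 0.922, higher in phalanges. The tendon genes *Tnmd* and *Scx* lay at 0 to 52.83 and 0 to 96.01 in the mouse and at 0 to 63.64 and 1.184 to 120.6 in the rat.

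The HZ libraries also held more transcripts of osteoclast and endothelial genes. The 8 osteoclast genes summed to 398.8 to 6536 in the mouse 1-week tibia PZ and 40770 to 79740 in the HZ, to 2374 to 14220 and 44200 to 142000 in the 4-week tibia, and to 4707 to 14210 and 94590 to 206400 in the phalanx. The 8 endothelial genes summed to 202.1 to 910.7 and 3861 to 17030 in the mouse 1-week tibia PZ and HZ, and *Kdr*, *Tie1*, *Flt1*, *Emcn* and *Pecam1*, 5 of the 8, were higher in the mouse phalanx PZ than in the tibia PZ, beside 3.23% of all genes. In the rat tibia PZ the macrophage and neutrophil genes summed to 341.9 to 672.3 at 1 week and 2085 to 10810 at 4 weeks. All 5 erythroid genes tested were higher in the rat PZ both with age and in the phalanx, beside 9.63% and 6.77% of all genes, and summed to 378.1 to 707.5 in the 1-week tibia PZ, 3338 to 13300 at 4 weeks and 1979 to 7574 in the phalanx PZ. The 13 cartilage genes were all lower in the mouse phalanx HZ than in the tibia HZ, summing to 184500 to 1252000 against 942200 to 2172000, and in the rat 10 of 11 were lower there, beside 9.20% and 16.3% of all genes. Of the 8 osteoclast genes, 7 were higher in the mouse HZ than in the PZ of the younger tibia and 8 in both other growth plates, beside 17.9% to 20.4% of all genes. *Col5a2* was higher in the HZ of the same 3 growth plates, whereas the collagen VI chains were higher in the HZ of the 1-week tibia only. The part of these genes in the collagen differences was not tested.

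Genes that modify, process and cross-link collagens, and collagen receptors, were read from lists of 25 and 8. In the mouse PZ, 8 of the 25 were higher with age, beside 5.19% of all genes, led by *Serpinh1*, the collagen chaperone HSP47 (0.83 ± 0.12), and *Bmp1*, a procollagen C-proteinase (0.96 ± 0.16; limma adjusted p = 2.2e-05 and 7.7e-05). In the rat PZ, 8 of 24 were higher and 2 lower with age, beside 9.63% and 6.45% of all genes, with *Serpinh1* again higher (1.04 ± 0.14) and *Adamts3*, a procollagen N-proteinase, and *Pcolce*, which enhances C-propeptide cleavage, lower (−1.21 ± 0.19 for *Adamts3*; limma adjusted p = 2.1e-06 for *Serpinh1* and 2.6e-05 for *Adamts3*). The mouse list had a median of 0.42 in that comparison, below the median of 1.25 of the collagens themselves. Between zones, 15 and 16 of 25 were lower in the mouse tibia HZ at 1 and 4 weeks, beside 23.7% and 16.6% of all genes, and 6 were higher at each, beside 20.4% and 18.6%, with *Serpinh1* (−1.75 ± 0.12 and −2.12 ± 0.12) and the prolyl 3-hydroxylase gene *P3h1* (−1.46 ± 0.12 and −1.84 ± 0.12) the most certain. Between bones, the lysyl oxidase family gene *Loxl4* was lower in the mouse phalanx HZ (−2.46 ± 0.34) and *Loxl2* in the rat phalanx HZ (−1.998 ± 0.184), while *Serpinh1* was higher in the mouse phalanx HZ (0.89 ± 0.12; limma adjusted p = 1.3e-05, 4e-10 and 2.8e-06).

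Among the receptors, the integrin α2 gene *Itga2* was higher in the mouse HZ by 5.09 ± 0.36 in the tibia at 1 week, 3.77 ± 0.36 at 4 weeks and 3.62 ± 0.38 in the phalanx ( limma adjusted p = 5.4e-13, 6.4e-10 and 1.4e-08). The discoidin domain receptor gene *Ddr2*, which binds fibrillar collagens, was lower in the tibia HZ than in the PZ at 1 week, by −1.33 ± 0.19 for mice and −2.04 ± 0.15 for rats ( adjusted p = 8.9e-07 and 1.5e-12). With age in the PZ, 1 of 8 receptor genes rose and 1 fell in the mouse, beside 5.19% of all genes higher and 3.39% lower. They were *Itgb1* (0.67 ± 0.14) and *Ddr2* (−0.64 ± 0.19), with limma adjusted p = 0.0022 and 0.029. *Itga10*, the integrin α10 gene of chondrocytes, was lower in the mouse phalanx HZ than in the tibia HZ (−1.10 ± 0.16, adjusted p = 4.2e-06).

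Among 10356 genes tested in both species, the 5 whose log2 values followed the mean of the scaled members most closely, by the smaller of the mouse and rat Pearson r over 29 and 30 libraries, were *Dmp1* (0.77 and 0.88), *Wif1* (0.75 and 0.78), *Fap* (0.72 and 0.91), *Ptprz1* (0.72 and 0.96) and *Phex* (0.72 and 0.90). For single members the nearest were *Ptprj* for *Col5a2* (0.93 and 0.94), *Nrp2* for *Col5a1* (0.86 and 0.81), *Postn* for *Col3a1* (0.80 and 0.95), *Foxa2* for *Col6a2* (0.82 and 0.85) and *Srpk2* for *Col14a1* (0.63 and 0.71). In the mouse alone, over 15203 genes, they were *Trps1* for *Col6a3* (0.94), *Unc5c* for *Col12a1* (0.92) and *Dlgap1* for *Col6a1* (0.84). These values are descriptions over libraries that share zone, age and bone.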

How the data were processed

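Per the labels and the study's methods, cartilage zones were cut by laser capture from frozen sections, and RNA was amplified with Ovation RNA-Seq V2 and sequenced in pairs after Nextera XT library preparation. For alignment the authors used STAR 2.4.2 (builds mm10 and rn6), with gene counting by featureCounts 1.4.6 and Relative Log Expression scaling in DESeq2. The annotation release and strand setting are not given in the sources used here. The deposited values are log2 of the normalized count plus 1, with mouse and rat tables normalized separately, and every value column was used. Normalized counts printed here were taken back from the deposited log2 values. Rows whose name had become a date were left out (26 mouse, 27 rat), as were 216 second rows of a rat symbol. Within each library, 100% of values under 200 were whole multiples (within 0.05) of the step worth 1 read, which gave the library depths: a median of 29366970 reads in the mouse and 16398947.5 in the rat.

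Members and gene lists were chosen with earlier results of these data known. Genes that reached 10 normalized counts in 5 or more libraries were fitted with limma 3.58.1 (R 4.3.3, trended and robust empirical Bayes, statmod 1.5.0) over all 6 groups of a species, which share 1 estimate of spread per gene. P-values were adjusted after Benjamini and Hochberg over all genes of a species within a comparison, and a call needed an adjusted p below 0.05. The study's own test used raw counts, which the deposited table replaces by scaled values, so the log-scale test was used. Fold changes on this scale understate those of low genes. Alternatives were a pseudocount of 4, no filter, a minimum of 50, quantile normalization, array quality weights, limma-voom on the recovered reads, the compared groups alone without and with a replicate block, and leaving out each library. All 10 members are named in the text; of each list the 2 genes with the smallest adjusted p are named, and all where 5 or fewer were called. *Bglap*, *Sp7*, *Ibsp*, *Tnmd* and *Scx* levels were chosen for the cell types they are known from, though the cells that held them here were not measured. The genes most like *Col1a1* and *Col1a2* are not reported here.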

Additional observations from a re-analysis of the deposited data

Results flagged for a closer look

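Within groups of 4 or 5 libraries, 7 of 102 gene and group combinations had 1 library far from the rest by Dixon's test, where chance gives about 5.1 (1 in 20). In the mouse 1-week tibia HZ, replicate 3 was high for *Col1a1* (126000 normalized counts, next library 55250) and *Col1a2* (85460, next 35600). In the mouse phalanx HZ, replicate 5 was low for *Col1a1* (35420, next 209700) and *Col1a2* (30490, next 158800), and replicate 2 was high for *Col3a1* (2501, next 1020). In the mouse phalanx PZ, replicate 4 was low for *Col6a2* (6775, next 8488). In the rat phalanx HZ, replicate 2 was low for *Col5a2* (12500, next 20890).

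The effect of age differed between zones, HZ minus PZ on the log2 scale by limma's test of the difference itself, for mouse *Col6a1* (−1.59), *Col6a2* (−1.47) and *Col6a3* (−1.54) and for rat *Col6a2* (−1.81), *Col14a1* (2.55) and *Col3a1* (3.35). The effect of bone differed between zones for mouse *Col6a1* (−2.16), *Col6a2* (−2.13) and *Col6a3* (−1.98) and for rat *Col6a2* (−1.14). Among these, zone differences without overlap had opposite signs in the mouse tibia at 1 and 4 weeks for *Col6a1* (0.91 and −0.68) and *Col6a3* (0.70 and −0.84), and in the tibia and phalanx for *Col6a3* (0.70 and −1.28). Bone differences without overlap had opposite signs in the PZ and HZ for *Col6a3* (0.54 and −1.44). These 4 contrasts of signs are the same differences of differences that were tested.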

How the results depend on the processing

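No called value changed direction under any alternative. Of 153 member values, 150 kept their side of the threshold with a pseudocount of 4, 149 without a filter, 150 with the stricter filter, 140 with quantile normalization, 145 with array quality weights, 143 with limma-voom on recovered reads and 140 with the compared groups alone. Leaving out a library kept 1738 of 1840. Counts of members called that moved by over 1.5 times were as follows. With quantile normalization the mouse HZ age count was 2 (from 1), the mouse 4-week tibia zone count 2 (from 4) and the mouse age difference count 1 (from 3). All genes called there, of 15213, were 2150 (from 2366), 5710 (from 5363) and 312 (from 372) in the same order. The rat HZ age count of 0 was 2 with a pseudocount of 4 or the stricter filter. It was 1 without a filter, with quantile normalization, array quality weights, limma-voom or the compared groups alone. All genes called there were 1615 in the main fit. With these settings they lay between 1111 (the compared groups alone) and 1866 (array quality weights). The rat PZ bone count of 5 was 1 with limma-voom, which called 677 of 11760 genes there in place of 1228. Quantile normalization moved the median of all rat genes by −0.10 in the HZ bone comparison and, between zones, by −0.14 in the tibia at each age and −0.17 in the phalanx. Leaving out 1 library gave ranges of 3 to 6 for the mouse PZ bone count, 2 to 8 for mouse HZ bone, 6 to 9 for the mouse phalanx zones, 3 to 4 for the mouse bone difference, 2 to 5 for rat PZ bone, 0 to 2 for rat HZ age and 2 to 3 for the rat age difference. The causes of these changes were not tested.

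The labels do not say that a shared replicate number marks a shared animal. Deviations of same-numbered libraries had correlations between −0.13 and 0.29, and every library correlated best with its own number in 5 of 5 pairs only for the mouse PZ and HZ of the tibia at 1 and 4 weeks. That last value is a hint from the data and not from the design. With a replicate block, 124 of 153 member values kept their side, 23 calls were gained and 6 lost. The gains included mouse *Col1a1* and *Col1a2* in the phalanx zones (limma adjusted p = 0.0016 and 0.0012). Between bones in the mouse HZ both were gained as well (0.047 and 0.015), and *Col1a1* in the 4-week tibia zones (0.033). The counts became 2 for mouse HZ age, 7 for the mouse 4-week tibia zones, 9 for the mouse phalanx zones and 4 for rat HZ age. All genes called became 926 (from 2366), 7450 (from 5363) and 3972 (from 5327) of 15213, and 1531 (from 1615) of 11760, in that order. Depth limits mouse *Col14a1* and rat *Col1a2*, whose lowest values rest on few reads. Depth also differed between some of the groups compared, and its part in their differences was not tested.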
